A study of Mus musculus with 4 samples.

Results

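The AP-1 transcription factor family was followed here through 10 genes, Fos, Fosb, Fosl1, Fosl2, Jun, Junb, Jund, Batf, Batf3 and Atf3, out of 39179 genes counted in mouse skin. They were taken by name as genes of the Fos, Jun, Batf and Atf3 branches, and all 10 passed the filter on low counts that left 16651 genes for testing. Total RNA was sequenced from 2 libraries of wild-type (WT) skin and 2 of lesional skin taken from mice lacking Itch (Itch KO), all on a C57BL/6 background. Both groups carry inflammation as their labelled phenotype, and the labels give no age, sex, skin site or allele of the Itch deletion. Whether each library stands for its own animal is not stated, and p-values therefore reflect only how these libraries scatter, which may be technical.

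AP-1 (activator protein 1) is not one protein but a set of dimers that bind DNA through a basic region and pair through a leucine zipper. Jun proteins can pair with each other or with Fos proteins, whereas Fos proteins need a Jun partner, and Batf, Batf3 and Atf3 join the same network as alternative partners. Many of these genes are immediate early genes, transcribed within minutes of growth factor, cytokine or stress signals passed on by MAP kinases. In epidermis AP-1 is known for its part in keratinocyte differentiation and wound responses, and mice without JunB and c-Jun in epidermis are a known model of psoriasis-like skin disease. The product of Itch is a HECT-type ubiquitin ligase, and the JunB and c-Jun proteins are among its described substrates. The data here are mRNA levels and hold no measure of the proteins.

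The promoters of Fos, Jun and Junb are shown because Fos and Junb carry the clearest differences described below, Jun is the other described Itch substrate, and these genes are known to be controlled partly by AP-1 and related factors at their own promoters. Each line gives the 250 bases before the RefSeq start site (GRCm38.p6), read 5′ to 3′ on the strand of the gene. Capitals mark a TATA box (TATAAA), an element like those known to bind AP-1 in the Jun promoter (TGACATCA) or a match to the NF-kB motif.
Fos, chr12:85473640-85473889, plus strand: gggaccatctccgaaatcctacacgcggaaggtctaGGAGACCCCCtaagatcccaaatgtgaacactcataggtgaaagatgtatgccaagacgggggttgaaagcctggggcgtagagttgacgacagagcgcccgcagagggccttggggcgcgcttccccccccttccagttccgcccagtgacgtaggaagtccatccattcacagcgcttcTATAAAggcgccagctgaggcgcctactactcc
Jun, chr4:95052223-95052472, minus strand: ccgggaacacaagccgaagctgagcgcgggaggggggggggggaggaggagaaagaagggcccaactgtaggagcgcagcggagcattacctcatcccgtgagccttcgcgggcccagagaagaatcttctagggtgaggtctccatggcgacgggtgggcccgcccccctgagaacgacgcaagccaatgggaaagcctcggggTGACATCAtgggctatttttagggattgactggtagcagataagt
Junb, chr8:84978749-84978998, minus strand: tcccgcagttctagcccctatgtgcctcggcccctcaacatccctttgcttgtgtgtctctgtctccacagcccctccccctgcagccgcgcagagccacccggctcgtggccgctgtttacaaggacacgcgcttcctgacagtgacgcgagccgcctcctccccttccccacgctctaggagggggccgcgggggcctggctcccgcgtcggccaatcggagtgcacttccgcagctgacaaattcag
RefSeq promoters were matched for 9 of the 10 members, all but Fosl1. Both strands of the 250 bases were searched, and a match is a description and not a binding site. For Jund, the RefSeq start (chr8:70697739) lay upstream of the start of the gene as counted (70698949). The bases directly before the latter were not searched. The AP-1 element TRE (TGANTCA) was found in 0 of the 9 and in 6.75% of all 32851 promoters, and the full CRE (TGACGTCA) in 0 of the 9 and in 1.55%. The element TGACATCA stood in 1 of the 9, Jun, at 45 to 38 bases before the start, against 2.93% of all promoters. Fos held TATAAA at 33 to 28 bases before the start, a word found in 12.37% of promoters, and an NF-kB match at 214 to 205 bases. NF-kB matches stood in Fos, Fosb and Fosl2, and in 7.25% of all promoters. The serum response element, searched as the CArG motif, was in 0 of the 9 windows and in 1.47% of all. Elements more than 250 bases before the start were not searched, so a motif missing here may lie further upstream. Junb held none of the marked motifs in this window and a CCAAT box at 36 to 32 bases before the start.

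Gene reads numbered 15144957 to 16008351 per library. Itch itself, at 96.7 and 103 CPM (the usual depth-normalised read count, with library sizes scaled by TMM) in WT replicates 1 and 2, stood at 11.7 in each Itch KO library, so each library lay on the side of its label. The groups also differed in sex: Xist stood at 1055 and 631 CPM in the WT pair and 0.947 and 0.892 in Itch KO, and the Y-linked Eif2s3y at 0.133 and 0.126 against 69.5 and 73.7 CPM. Genotype, lesion and sex therefore cannot be told apart in any comparison below. The WT libraries stood apart from each other. Their profiles correlated at 0.923 over the tested genes (Pearson, log2(CPM + 1)), against 0.983 for the Itch KO pair, and 10 skeletal muscle genes summed to 17950 CPM in WT replicate 1 against 1191 to 3002 in the other libraries. WT replicate 2 correlated more closely with Itch KO replicates 1 and 2 (0.931 and 0.945) than with WT replicate 1. WT replicate 1 correlated with these Itch KO libraries at 0.849 and 0.85. Keratinocyte markers, the check of the tissue, summed to 15940 to 18960 CPM in the 4 libraries.

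Nearly all AP-1 genes were higher in Itch KO skin. The Itch KO pair exceeded the WT pair without overlap for 9 of the 10 members, all but Jund, where 31.2% of all tested genes showed this order and 30.0% the opposite one. The median log2 fold change of the 10 (Itch KO over WT) was 1.92, against 0.008 over all tested genes. With edgeR's quasi-likelihood test and Benjamini-Hochberg adjustment over all genes, 0 members passed an adjusted p of 0.05, and 1 of all tested genes did (0.00601%). By the unadjusted p at 0.05, 8 members were higher and 0 lower, where 12.0% of tested genes were higher and 10.9% lower. DESeq2 called 7 members higher, Fos, Fosb, Fosl1, Jun, Junb, Batf and Batf3, where it called 7.99% of genes higher and 6.28% lower. With limma-voom 0 members passed, as did 0 of all genes, and 8 were higher at an unadjusted p under 0.05, where 12.5% of genes were. The calls depended on the WT libraries: edgeR called 6 members higher without WT replicate 1, where 5.52% of genes were called higher, and 8 without WT replicate 2, where 15.3% were. Without a filter on low counts it called 4, where 1.71% of genes were called higher. With Itch KO replicate 1 or 2 left out, the median log2 fold change of the members was 1.922 in each fit. Over all tested genes it was -0.012 and -0.016 in these fits. Where a library was left out, the lone library of its group was assumed to vary like the pair of the other group.

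**Figure D1:**
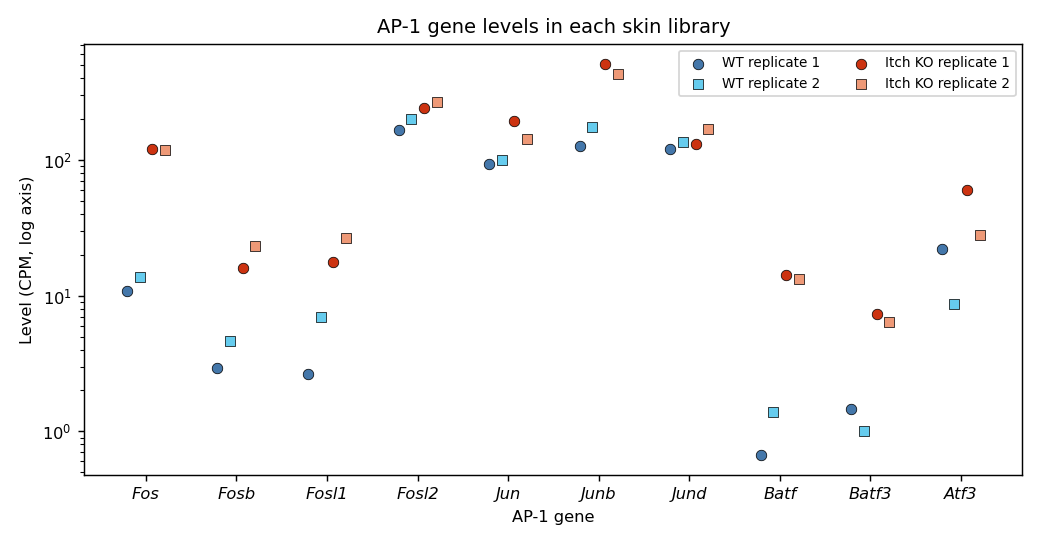
Level of each AP-1 gene in the 4 skin libraries, in CPM on a log axis, with circles for replicate 1 and squares for replicate 2 of each group. Both Itch KO points (reds) lie above both WT points (blues) for all genes shown but Jund.

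Among the Fos genes, Fos showed the widest separation between the groups for its spread. Fos, the prototype immediate early gene (ENSMUSG00000021250, GRCm38 chromosome 12, 85473890 to 85477273, plus strand), stood at 10.9 and 13.8 CPM in the WT pair and at 121 and 118 CPM in Itch KO. The libraries of each group were close to each other, and the lower Itch KO library lay 8.56-fold above the higher WT library. The log2 fold change was 3.28 (SE 0.20, edgeR adjusted p = 0.0528), just above the threshold, and it ranked 12 among all tested genes by p. Leaving out each library in turn gave 3.11 to 3.46.

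Fosb, which also yields a truncated form known from chronic stimulation, was much less abundant. It stood at 2.93 and 4.61 CPM in the WT pair and 15.9 and 23.3 in Itch KO, a log2 fold change of 2.37 (SE 0.39, edgeR adjusted p = 0.0819). Gene-level counts do not separate full-length from truncated Fosb. Fosl1, encoding Fra-1 and known for its induction at wound edges and in migrating keratinocytes, stood at 2.67 and 7.01 CPM in the WT pair and 17.7 and 26.8 in Itch KO. The groups did not overlap, but the WT libraries differed 2.63-fold, the widest gap of any member in WT. Its log2 fold change was 2.20 (SE 0.56, edgeR adjusted p = 0.144), and it was 1.66 without WT replicate 1 and 3.06 without WT replicate 2. Of the exonic bases of Fosl1, 57.2% are shared with Ccdc85b on the opposite strand, so its counts are uncertain.

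Fosl2, encoding Fra-2, was the most highly counted Fos gene in every library and differed little. It stood at 167.8 and 201.5 CPM in the WT pair and at 242.5 and 268.3 CPM in Itch KO. The ranges did not overlap, and the higher WT and lower Itch KO libraries differed 1.20-fold, as did the WT libraries between themselves. The log2 fold change of 0.47 (SE 0.17, edgeR adjusted p = 0.218) was far below that of Fos.

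Junb stood out among the Jun genes. Junb, encoding a described Itch substrate that antagonises or replaces c-Jun depending on the promoter (ENSMUSG00000052837, GRCm38 chromosome 8, 84974484 to 84978718, minus strand), stood at 127 and 175 CPM in the WT pair and 514 and 428 CPM in Itch KO. Every Itch KO value was at least 2.45-fold above the WT values, against a gap of 1.38-fold within WT and 1.20-fold within Itch KO. The log2 fold change was 1.64 (SE 0.24, edgeR adjusted p = 0.0755), and 1.43 to 1.89 with each library left out in turn. Of its exonic bases 7.5% are shared with Prdx2 on the opposite strand, which stood at 172 and 235 CPM in the WT pair and 240.5 and 278 in Itch KO, a log2 fold change of 0.35.

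Jun, the gene of c-Jun, the other described Itch substrate among the members, differed less. It stood at 94.2 and 100 CPM in the WT pair and 193 and 143 CPM in Itch KO (log2 fold change 0.79, SE 0.20, edgeR adjusted p = 0.143). The WT libraries were within 1.06-fold of each other, whereas the Itch KO libraries differed 1.35-fold, and the log2 fold change was 0.55 without Itch KO replicate 1. The antisense gene Junos shares 7.3% of the exonic bases of Jun and had at most 53 counts in any library.

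Jund, whose product is known as the stably expressed Jun protein of resting cells, was the one member whose groups overlapped. It stood at 121 and 137 CPM in the WT pair and at 131 and 169 CPM in Itch KO. Itch KO replicate 1 lay below WT replicate 2, and the log2 fold change was 0.22 (SE 0.19, edgeR adjusted p = 0.529). A difference in Jund was therefore within the spread between libraries, which does not show that its level was equal. The annotated antisense gene Gm11175 covers 52.6% of the exonic bases of Jund and had 0 counts in all 4 libraries.

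Batf and Batf3, bZIP factors of the immune system without a transactivation domain of their own, were scarce in WT and more abundant in Itch KO skin. Batf, known for its part in T helper and B cell differentiation, had 10 and 22 counts in the WT pair and 226 and 207 in Itch KO, or 0.667 and 1.39 CPM against 14.3 and 13.2 CPM. The exact 95% Poisson intervals, which cover counting error only, were 0.320 to 1.23 and 0.870 to 2.10 CPM for the WT libraries, far below those of the Itch KO libraries, 12.5 to 16.3 and 11.5 to 15.1 CPM. Its log2 fold change of 3.73 (SE 0.47, edgeR adjusted p = 0.0676) was the highest among the 10 members and was 4.35 without WT replicate 2. Batf3, known for its need in cross-presenting dendritic cells, had 22 and 16 counts in the WT pair and 117 and 100 in Itch KO, a log2 fold change of 2.47 (SE 0.40, edgeR adjusted p = 0.0806).

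Atf3, a stress-induced factor that often acts as a repressor, was uneven within both groups. It stood at 22.2 and 8.71 CPM in the WT pair and at 60.3 and 28.2 CPM in Itch KO. In each group replicate 1 lay above replicate 2, by 2.55-fold in WT and 2.14-fold in Itch KO, an order shown by 33.3% of tested genes. WT replicate 1 was within 1.27-fold of Itch KO replicate 2, so the groups barely separated. The log2 fold change was 1.52 (SE 0.62, edgeR adjusted p = 0.245), 0.87 without Itch KO replicate 1 and 2.34 without WT replicate 1.

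**Figure D2:**
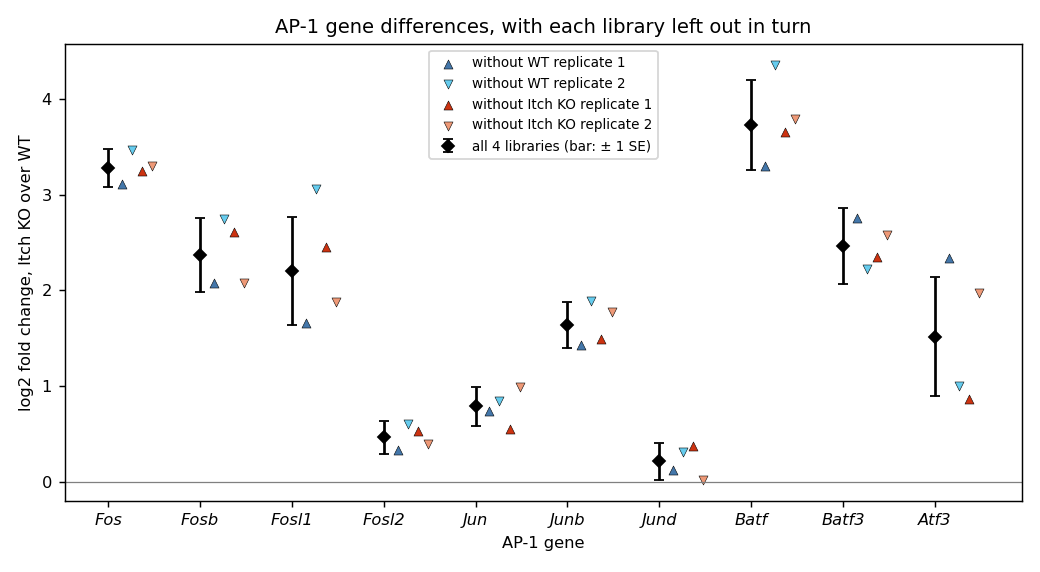
Log2 fold change (Itch KO over WT) of each AP-1 gene with all 4 libraries (black diamonds, bars of 1 SE) and with each library left out (triangles). All points lie above 0, Fos spans 3.11 to 3.46, and Atf3 and Fosl1 move most when a library is left out.

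The difference between the WT libraries ran through most of the family. WT replicate 2, whose profile over all genes was nearer to the Itch KO libraries, was higher than WT replicate 1 for 8 of 10 members, all but Batf3 and Atf3, against 45.0% of tested genes. The step from the higher WT to the lower Itch KO library was larger than the fold between the WT libraries for Fos, Fosb, Jun, Junb, Batf and Batf3. How many of all tested genes show this was not counted, so it describes these members only. For Fosl2 both were 1.20-fold, and for Fosl1 (2.53-fold against 2.63-fold), Atf3 (1.27-fold against 2.55-fold) and Jund the fold within WT was the larger. Within Itch KO, replicate 2 was higher for Fosb, Fosl1, Fosl2 and Jund and lower for the other 6, where 50.1% of tested genes were higher in replicate 2.

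Levels of different genes were compared as CPM per kilobase of exon, since longer transcripts give more reads. In WT skin Jund, at 72.5 and 81.9 CPM per kb, and Junb, at 55.3 and 76.0, led the family with overlapping values. Jun followed at 29.5 and 31.4, and Fosl2 at 17.3 and 20.8 CPM per kb. Fos, at 4.62 and 5.85, overlapped Atf3, at 10.3 and 4.04, and Fosl1, Batf3, Batf and Fosb lay at or below 3.45 CPM per kb. In Itch KO skin Junb came first at 223.5 and 186 CPM per kb, followed by Jund at 78.3 and 101. Jun, at 60.7 and 44.95, and Fos, at 51.5 and 50.1, overlapped there, and both lay above Fosl2, at 25.1 and 27.7 CPM per kb. Atf3, at 27.97 and 13.1, overlapped Fosl2 and lay above it in replicate 1. Fosl1 (8.73 and 13.2), Batf (10.2 and 9.38) and the lower Atf3 value overlapped, and Batf3 and Fosb stayed at or below 4.63 CPM per kb.

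The make-up of the AP-1 transcript pool differed between the groups. The summed level of the 10 members was 193 and 226 CPM per kb in WT and 493 and 453 in Itch KO. Jun genes made up 81.6% and 83.8% of the sum in WT and 73.5% and 73.3% in Itch KO, and Fos genes 12.3% and 13.7% against 17.8% and 20.9%. The share of Junb was 28.7% and 33.7% in WT and 45.3% and 41.1% in Itch KO, that of Jund 37.6% and 36.3% against 15.9% and 22.3%, and that of Fos 2.40% and 2.59% against 10.4% and 11.1%. The counting mode is not given in the sources used here, and where reads on shared bases are set aside, Jund and Fosl1 are undercounted. With bases shared with other genes left out of the lengths, a choice made after seeing the data, Jund came to 153 and 173 CPM per kb in WT and 165 and 213 in Itch KO, and Junb to 59.7 and 82.2 against 242 and 201. On that scale Jund led both WT libraries and Itch KO replicate 2, and Junb led Itch KO replicate 1. The place of Junb above Jund in Itch KO skin thus depended on the length used, whereas the higher Junb share in Itch KO did not: it was 21.2% and 24.9% in WT and 39.3% and 33.45% in Itch KO.

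**Figure D3:**
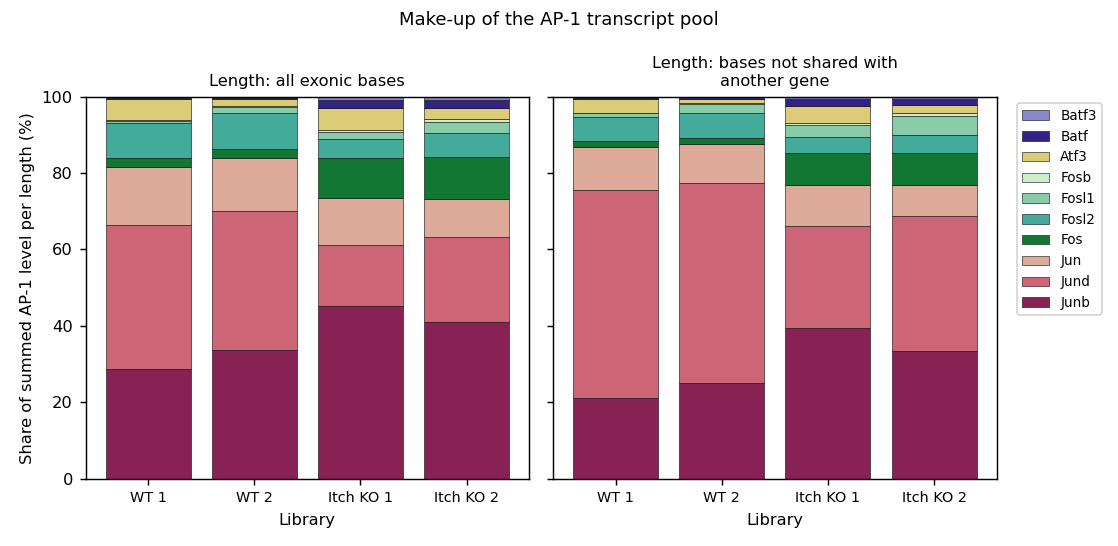
Share of each AP-1 gene in the summed level per exon length (percent) in the 4 libraries, with all exonic bases (left) and with bases not shared with another gene (right). Junb and Fos take larger shares and Jund smaller shares in both Itch KO libraries on either scale.

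Ratios between members of 1 library do not depend on the scaling between libraries. They restate the counts above, and in each pair given the numerator is the member of larger fold change. Their separation of the groups is therefore no further evidence. The per-length ratio of Fos to Fosl2 was 0.267 and 0.281 in WT and 2.05 and 1.81 in Itch KO, with mean ratios that differed 7.05-fold. The ratio of Junb to Jun was 1.87 and 2.42 in WT and 3.68 and 4.14 in Itch KO, and that of Junb to Jund 0.762 and 0.928 against 2.85 and 1.84. With unshared exonic bases as length, Junb to Jund was 0.391 and 0.476 in WT against 1.46 and 0.944 in Itch KO. The ratio of Jun to Jund was 0.408 and 0.383 against 0.774 and 0.445, where Itch KO replicate 2 lay close to WT. The ratio of Fosl1 to Fosl2 was 0.0757 and 0.166 against 0.348 and 0.475. With 2 libraries against 2, an exact permutation test of a single ratio cannot give a p below 0.333, so these ratios are given as values.

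Genes around AP-1 were read from lists of related factors, co-induced genes, kinases, ligases and described targets, and 0 of their genes passed edgeR over all genes. Their counts stand beside the shares of all tested genes: 12.0% higher and 10.9% lower by the unadjusted edgeR p at 0.05, and 7.99% higher and 6.28% lower in DESeq2. Of 25 related bZIP genes, 10 were higher and 2 lower (edgeR, unadjusted p under 0.05), with a median log2 fold change of 0.41, and DESeq2 called 6 higher and 0 lower. The lower count was no larger than the share of all genes. Cebpd, an acute-phase transcription factor, stood at 13.3 and 12.4 CPM in the WT pair and 54.8 and 90.2 in Itch KO, and Jdp2, a Jun-dimerizing repressor, at 8.80 and 10.7 against 49.4 and 31.0. Nfe2l2, the regulator of antioxidant genes, stood at 79.5 and 91.7 against 188 and 156 CPM.

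Of 25 other immediate early genes, 13 were higher and 2 lower by the unadjusted edgeR p (median 1.02), and DESeq2 called 12 higher and 1 lower, against 12.0% and 10.9% of all genes by edgeR and 7.99% and 6.28% by DESeq2. The 2 lower genes were again no more than the share of all genes. Zfp36, which destabilises cytokine mRNAs, stood at 76.6 and 81.8 CPM in the WT pair and 219 and 194 in Itch KO. Socs3, the feedback inhibitor of cytokine receptors, measured 47.1 and 32.6 against 142 and 164 CPM, and Ccn1, a matrix-associated signalling protein, 23.9 and 20.2 against 85.6 and 141.

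Most kinase and ligase genes of the pathway differed far less. Of 24 tested genes for kinases and activators upstream of AP-1, 3 were higher and 2 lower by the unadjusted edgeR p (median -0.14), and DESeq2 called 2 higher. These counts are close to the shares of all genes (12.0%, 10.9% and 7.99%) and are no result about the list. The genes of smallest p are given as values. Elk3, an Ets factor of serum response elements, stood at 30.7 and 27.9 CPM in the WT pair and 91.3 and 68.3 in Itch KO, Map2k1, a kinase of the ERK cascade, at 76.1 and 67.9 against 103 and 114, and Rps6ka1, a kinase activated by ERK, at 46.7 and 59.4 against 78.9 and 84.8. Of 15 genes for ubiquitin ligases of Jun proteins, Itch adaptors and related enzymes, 0 were higher and 4 lower (median -0.44, and -0.17 without WT replicate 1), and DESeq2 called 2 lower, against 10.9% and 6.28% of all genes. Itch, the deleted gene, is 1 of the 4 and 1 of the 2. The others by edgeR were the X-linked Usp9x, a deubiquitinase described to act on Itch, at 124 and 71.9 against 45.2 and 37.2 CPM, Ndfip2, an adaptor of Nedd4-family ligases, at 177 and 146 against 106 and 109, and Smurf2 at 107 and 84.2 against 62.3 and 64.6.

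Described AP-1 targets of skin and immune cells lay furthest from 0 among these lists, at a median of 2.42 over 31 genes, with 20 higher and 1 lower by the unadjusted edgeR p and 17 higher and 1 lower in DESeq2. Of all genes 12.0% were higher and 10.9% lower by edgeR, and 7.99% and 6.28% by DESeq2. The median was 1.95 without WT replicate 1 and 4.26 without WT replicate 2. This list, like the others, was chosen with earlier results of these data known, so its rank among them is only a description. Mmp9, a gelatinase, stood at 27.1 and 22.3 CPM in the WT pair and 144 and 111 in Itch KO, and Mmp3, a stromal metalloproteinase, at 16.0 and 37.0 against 334 and 247. S100a8 and S100a9 of this list are also on the neutrophil list. S100a9, a calprotectin subunit, measured 4.13 and 10.7 CPM in the WT pair, far below the 1049 and 447 of the Itch KO pair.

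**Figure D4:**
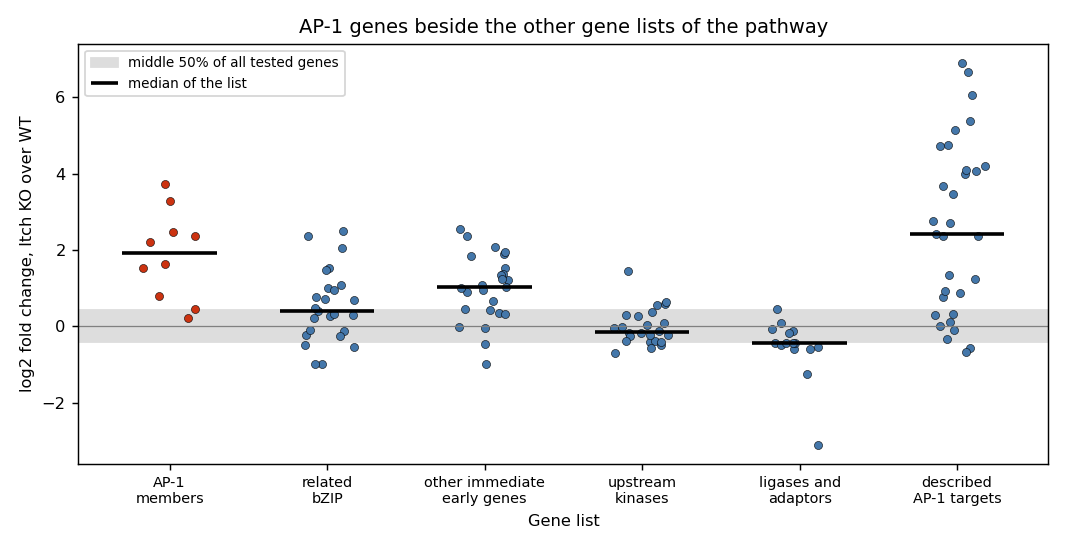
Log2 fold change (Itch KO over WT) of each tested gene of the AP-1 members (red) and of 5 other lists (blue), with the median of each list as a black bar and the middle 50% of all tested genes, -0.41 to 0.43, in grey. The AP-1 median of 1.92 lies between those of the other immediate early genes (1.02) and the described targets (2.42), while the kinase median of -0.14 lies inside the grey band.

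Markers of other cell types moved with the same contrast, and their part in the AP-1 differences was not tested. In bulk skin more cells of a type and more RNA per cell cannot be told apart. The order of both Itch KO libraries above both WT libraries was shown by 31.2% of all tested genes and the opposite order by 30.0%, and the marker counts are to be read against these shares. Of 11 macrophage and monocyte markers, the Itch KO pair exceeded the WT pair for 11, with a summed level of 451 to 496 CPM in the WT pair and 2933 to 4073 in Itch KO. For neutrophils this held for 8 of 9 markers, with 101 to 118 CPM against 1024 to 2320, and Ly6g had 0 counts in both WT libraries. It held for 8 of 10 T cell markers (194 to 204 against 400 to 401 CPM), 8 of 10 dendritic cell markers (686 to 895 against 1566 to 1720), 7 of 8 mast cell markers (120 to 219 against 465 to 801) and 4 of 5 tested B and plasma cell markers (3.72 to 6.27 against 146 to 378). Single genes set some of these sums. Most of the T cell sum was Thy1, and most of the dendritic cell sum was Cd74 and H2-Ab1. Most of the WT neutrophil sum was Il1r2, which overlapped between the groups (107 and 63.8 against 172 and 78.9 CPM). The most abundant marker of each list was Lyz2 for macrophages (187.9 and 187.8 against 1032 and 573 CPM), S100a9 for neutrophils, Thy1, which fibroblasts also express, for T cells (127 and 156 against 305 and 323), Cd74 for dendritic cells (507.5 and 388 against 1009 and 929), Mcpt4 for mast cells (39.7 and 67.7 against 109 and 217.5) and Igkc for B and plasma cells (2.93 and 1.64 against 99.98 and 262). Beside Batf3, the cross-presenting dendritic cell markers Xcr1 and Clec9a were scarce in all libraries: Xcr1 measured 0.800 and 0.821 CPM in the WT pair and 1.71 and 1.47 in the Itch KO pair, and Clec9a 0.800 and 0.757 against 2.40 and 1.47. Ccr7, a marker of migrating dendritic cells, measured 0.267 and 0.757 against 9.85 and 7.07 CPM. Cd207 of the dendritic cell list went the other way, at 49.47 and 26.57 CPM in the WT pair and 21.09 and 18.99 in Itch KO. Zbtb46 of that list overlapped between the groups (7.867 and 4.482 against 7.958 and 5.671 CPM). Beside Batf, the genes of the T cell receptor complex on the list did not share a direction. Trac stood at 1.00 and 1.07 CPM in the WT pair and 5.24 and 4.33 in Itch KO, and Cd3d at 7.00 and 4.86 against 10.3 and 7.90, without overlap. Cd3e (11.8 and 5.81 against 6.88 and 5.03 CPM) and Cd3g (31.1 and 16.4 against 19.4 and 15.8) overlapped between the groups. The coreceptor gene Cd4 measured 0.733 and 2.15 against 11.1 and 10.7 CPM.

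Resident skin compartments gave a mixed picture beside the same differences, read against the same 31.2% above and 30.0% below. Both Itch KO libraries were above both WT libraries for 8 of 8 fibroblast markers (1836 to 3222 CPM against 12450 to 13870) and 4 of 7 endothelial markers (211 to 426 against 503 to 549). They were above for 2 and below for 5 of 10 keratinocyte markers (17720 to 18960 against 15940 to 18360 CPM), below for 9 of 10 muscle markers (3002 to 17950 against 1191 to 1404) and below for 4 of 7 fat cell markers (2279 to 4190 against 2918 to 3022). The most abundant were Col3a1 (553 and 937 against 5169 and 4381 CPM), Plvap (99.5 and 68.0 against 167 and 183), Krt10 (4274 and 4128 against 2331 and 2756), Acta1 (4121 and 724 against 410 and 353), Cfd (1576 and 922 against 1058 and 1367) and, for the hair follicle, Krt71 (9.60 and 2608 against 1707 and 2848). The 10 hair follicle markers summed to 34.4 CPM in WT replicate 1 and to 5934 to 7884 in the other libraries. Most of that sum came from the inner root sheath genes Krt71, Krt25 (6.73 and 1613 against 1162 and 1804 CPM) and Tchh (13.7 and 2052 against 1482 and 2115), which overlapped between the groups. The other 7, genes of hair shaft keratins and Krtap14, had at most 1.27 CPM each in WT replicate 1 and were above in both Itch KO libraries. Heat shock genes, known to respond to handling of tissue as some AP-1 genes do, had 4 of 9 members above and 1 below, against 31.2% and 30.0% of all genes. Hspa8 (70.4 and 82.1 against 120 and 160 CPM), Hsp90aa1 (21.4 and 30.55 against 41.9 and 50.6) and Hspd1 (56.2 and 69.05 against 82.4 and 107) had the smallest p, while the inducible Hspa1a and Hspa1b overlapped between the groups at 22.5 and 25.6 against 21.8 and 31.0 and at 120 and 125 against 114 and 165 CPM.

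The listed genes whose pattern over the 4 libraries was most like that of a member were found by the distance between profiles of log2(CPM + 1), each centred on its mean, among 120 genes. With 4 libraries, such likeness describes these libraries alone. The nearest to Junb were Zfp36 (distance 0.384) and Jdp2 (0.408), and the nearest to Jun were Maff, a small Maf factor (0.157), and Plau, the urokinase gene (0.186). Fosl1 was nearest to Hbegf, an EGF receptor ligand (0.438), which stood at 6.80 and 19.6 CPM in the WT pair and 55.3 and 85.8 in Itch KO. Fosb was nearest to Cebpd (0.512), Fosl2 to Klf10 (0.135), Jund to Map2k2 (0.105) and Atf3 to Nfe2 (0.640). Fos and Batf were both nearest to Mmp10, at distances of 0.664 and 0.652, the largest given here. Mmp10 stood at 0.333 and 1.64 CPM in the WT pair and 12.25 and 19.2 in Itch KO. At such low WT levels the added 1 CPM weighs on the profile.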

How the data were processed

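Deposited values were read counts per Ensembl gene, 1 file per library. The submitters' processing notes name TopHat2, HTSeq 0.6.1, CASAVA 1.8.2 and SAMtools 0.1.19, with mm10 (GRCm38) as build. Annotation release, strand setting and counting mode were not given in the sources used here. Reads without a feature (at most 7.45%) and ambiguous reads (at most 4.70%) stayed out of library sizes. Symbols, coordinates and exon lengths came from GENCODE vM21, which held 37693 of 39179 identifiers, and promoters from RefSeq (GRCm38.p6).

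The test was the two-sided quasi-likelihood F test of edgeR 4.0.16 (R 4.3.3; legacy and robust settings) after filterByExpr (minimum count 10) and TMM scaling, adjusted by Benjamini-Hochberg at 0.05. At a floor of 3 counts, 0 reads allow up to 0.187 to 0.198 CPM. Libraries within a group differed beyond sampling noise (chi-square per degree of freedom 117 in WT, 25.2 in Itch KO). Alternatives were DESeq2 1.42.0, limma-voom 3.58.1, other scalings and lengths, no filter, a replicate block, X and Y genes left out, and each library left out. The procedure was tested on simulated counts.

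Members and lists were chosen with earlier results of these data known. Named genes were the members, Itch, the 3 genes of smallest p in each pathway or technical list, the most abundant gene of each marker list, and the listed gene nearest in profile to each member with a mean of at least 5 CPM (for Jun and Junb 2 genes). Ddx3y, the other sex-linked gene under this rule, gave the same order as Eif2s3y. Prdx2, Junos, Gm11175, Ccdc85b, Smurf2, Xcr1, Clec9a, Ccr7, Cd207, Zbtb46, H2-Ab1, Il1r2, Trac, Cd3d, Cd3e, Cd3g, Cd4, Ly6g, Krt25, Tchh, Krtap14, S100a8, Hspa1a, Hspa1b and the genes under other observations were named after their values were seen.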

Additional observations from a re-analysis of the deposited data

How the results depend on the processing

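All 10 members kept a higher Itch KO level in all 11 alternatives, and their median log2 fold change stayed between 1.87 and 2.06. The number called did not: edgeR called 0 with all libraries, 4 without a low-count filter (Fos, Fosb, Junb and Batf, where 1.71% of genes were called higher) and 0 to 8 with each library left out, and DESeq2 called 7. Of 120 other pathway genes, 0 passed (57 at an unadjusted p under 0.05), 8 without the filter, 41 with DESeq2 and 0 to 60 with a library left out. Over all genes the count of 1 became 488 without the filter, 2329 with DESeq2, and 0 with limma-voom, with X and Y genes left out and with a replicate block (3566, 3649 and 3998 at an unadjusted p under 0.05), and 0 to 5320 with a library left out. The cause was not tested, but fits without a WT library hold no spread between WT libraries. The kinase list's median of -0.14 ran from -0.22 without WT replicate 2 to 0.000662 without WT replicate 1. Jun genes made up a mean of 73.4% of the AP-1 sum in Itch KO, 72.1% with the longest transcript as length and 76.9% with unshared exonic bases. The replicate numbers are not known to pair libraries (correlation of same-numbered deviations 0.186 over 2 pairs), and with the replicate block 0 members were called and 9 had an unadjusted p under 0.05. Batf and Batf3, with 10 to 22 counts in WT, were limited most by depth.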

Other observations

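Several genes of the lists went against the rest of their list. Among immediate early genes, Egr3 stood at 52.2 and 62.0 CPM in the WT pair and 26.0 and 31.7 in Itch KO, and Klf4, a factor of barrier formation, at 644 and 565 against 422 and 450, while Egr1 stood at 65.2 and 117 against 220.1 and 198 CPM. Egr2 (58.0 and 119 against 78.7 and 97.0 CPM) and Klf6 (251 and 165 against 214 and 188 CPM) overlapped between the groups. Among described AP-1 targets, the cornified envelope genes Lor and Ivl had both Itch KO libraries below both WT libraries, at 741 and 781 against 1263 and 1156 CPM and at 202 and 215 against 235 and 381 CPM. Ccnd1, Cdkn2a and Egfr, which serve proliferation and its control, overlapped: Egfr stood at 131 and 133 CPM in the WT pair and 128 and 137 in Itch KO.

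The transcription factor genes Cebpa (470.0 and 457 against 318 and 346 CPM) and Atf7 (105 and 56.2 against 45.7 and 35.7 CPM) were the 2 related bZIP genes lower at an unadjusted p under 0.05 in edgeR, and neither passed after adjustment.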
